A study of Danio rerio with 3 samples.

Results

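The 9 genes described here are tal1, lyl1, lmo2, gata2a, gata2b, gata1a, ldb1a, hhex and meis1b, which encode the zebrafish tal1 and lmo2 transcription complex and factors that work with it. They were picked by name, not by their values, from a count table of 19831 genes, and each was followed over single cells with 500 or more detected genes. The table lists 8 of the 9 and holds counts for 7. The gene lyl1 has no row under that name, and gata1a had 0 counts.

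Both libraries hold single cells dissociated from zebrafish trunks at 36 hours post fertilization (hpf) and measured with STRT-seq, in which each cell is sorted into its own well and its transcripts are barcoded. The embryos carried 2 reporters, GFP placed under UAS and switched on by spi2:Gal4, and mCherry under the kdrl promoter. Cells were sorted as positive for both (kdrl+spi2+) into DP 1 and DP 2, 2 libraries of 1 group. Each reporter marks past or present activity of its promoter fragment, and the Gal4 relay and the stable fluorescent proteins can outlast the transcript. The labels call such kdrl+ cells hemogenic endothelial cells, and they do not say that DP 1 and DP 2 came from separate clutches, so differences between them may be technical. The SP library of kdrl-spi2+ cells was not analysed here.

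The kept cells number 53 in DP 1, with 9232289 counts, and 35 in DP 2, with 3114643 counts. The median cell held 134394 counts in DP 1 (range 15439 to 903548) and 58292 in DP 2 (range 4818 to 379006). Levels are given as CPM, the counts of a gene scaled to a common total count, from summed counts with exact Poisson 95% intervals, and shares of cells with exact Clopper-Pearson 95% intervals. Both cover counting error only. The CPM intervals, and those of count ratios below, take each count as independent. Whether a count is a molecule is not known, so these intervals may be too narrow. CPM is not scaled by gene length, so levels are compared between cells and never between genes. Because the libraries differ in depth, shares are also given after each cell was thinned to 20217 counts, which keeps 50 cells of DP 1 and 29 of DP 2. The label was checked against transcripts: kdrl was found in 15 cells of each library, runx1 in 7 and 3, and cdh5 in 6 and 5. Other blood and hemogenic regulators ranged widely. In DP 1 and DP 2, myb was found in 48 and 30 cells, fli1a in 49 and 29, and the sort gene spi2 in 45 and 30. The gene gfi1aa was in 17 and 4, while gfi1b and mecom were at 0. Of 19 endothelial markers the most widely found were tek in DP 1, in 22 cells, and kdrl and pecam1 in DP 2, in 15 cells each, while erg was at 0. The neutrophil gene lyz was found in 83 of 88 cells, the most of 12 neutrophil markers. The others ranged widely. In DP 1 and DP 2, npsn was in 47 and 21 cells, mpx in 21 and 12, lect2l in 5 and 3, and cxcr1 in 1 and 0. The globin gene hbae1.1 was found in 75 of 88, with alas2, an erythroid heme synthesis gene, in 2. The summed level of 12 skeletal muscle genes was 17.2 CPM in DP 1 and 221 CPM in DP 2, and its part in any difference between the libraries was not tested.

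As background, TAL1 is a basic helix-loop-helix protein that binds DNA as a dimer with an E protein such as the products of tcf3 and tcf12. LMO2 does not bind DNA itself. It bridges the TAL1 dimer to LDB1, an adaptor that dimerises and ties in a GATA factor, and together they form a complex that drives blood and early endothelial gene programmes. In zebrafish, gata2b is known as a marker of the hemogenic endothelium of the dorsal aorta, its paralogue gata2a is expressed in endothelium more widely, and gata1a is the main erythroid GATA factor. The homeodomain proteins encoded by hhex and meis1b act in blood and endothelial development and, for MEIS1, as a partner of PBX and HOX proteins.

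Of the complex genes, lmo2 was found most widely. It was detected in 39 of 53 DP 1 cells, or 73.6% (interval 59.7 to 84.7), with a level of 149 CPM (interval 141 to 157). In DP 2 it was detected in 19 of 35 cells, or 54.3% (interval 36.6 to 71.2), with a level of 85.4 CPM (interval 75.4 to 96.3). With each cell thinned to 20217 counts the shares were 52.0% and 51.7%, without the gap seen at full depth. With cells thinned to 44880 counts instead, which leaves out more shallow cells, they were 74.4% and 60.9%, so the size of the gap depends on the depth chosen. In the cells that held it, lmo2 ran from 9.44 to 1734 CPM in DP 1 and from 6.0 to 565 CPM in DP 2. The cell with the highest level was DP 1 cell 18, a cell with neither marker set described below.

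The dimer partner tal1 was found in 13 cells of DP 1 (24.5%, interval 13.8 to 38.3) and in 7 of DP 2 (20%, interval 8.44 to 36.9). Its levels, 26.1 CPM (interval 22.9 to 29.6) and 24.7 CPM (interval 19.5 to 30.9), overlapped in their intervals, and the thinned shares were 14.0% and 17.2%. Few cells carried most of these counts. DP 1 cell 23 gave 107 of the 241 counts in DP 1, and DP 2 cell 7 gave 34 of the 77 in DP 2. Without the cell with the most tal1 counts in each library the levels were 15.6 and 14.1 CPM.

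The adaptor gene ldb1a was found in 15 cells of DP 1 (28.3%, interval 16.8 to 42.3) and in 4 of DP 2 (11.4%, interval 3.2 to 26.7), at 20.3 and 7.71 CPM. It was left in 16% and 3.45% of thinned cells. Cells with ldb1a were deeper than cells without it, with median totals of 187274 and 73781 counts.

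Among the GATA genes, gata2a was found in 1 DP 1 cell and 4 DP 2 cells and gata2b in 4 and 8. For gata2a the DP 1 level was 1.84 CPM (interval 1.07 to 2.95) and the DP 2 level 11.9 CPM (interval 8.36 to 16.4). For gata2b they were 5.20 CPM (interval 3.83 to 6.89) and 35.3 CPM (interval 29.0 to 42.6). Both genes were thus higher in DP 2 on this scale, the shallower library, and both kept the higher share there in thinned cells, at 0 of 50 against 13.8% for gata2a and 6.0% against 20.7% for gata2b. With 1 library on each side there is no replicate check of that difference. For gata2b in DP 1 a single cell gave 79.2% of the counts, and the level was 1.2 CPM without it. No count of gata1a was found in 88 cells, with intervals up to 4.11% of cells with a count and up to 0.299 CPM. These limits do not bound the share of cells that express the gene. Its paralogue gata1b was found in 9 cells, 6 of DP 1 and 3 of DP 2, with 102 counts. Whether the counting could split gata1a and gata1b is not known.

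The partner genes hhex and meis1b lay between lmo2 and tal1 in their shares. The gene hhex was found in 24 cells of DP 1 (45.3%, interval 31.6 to 59.6) and in 12 of DP 2 (34.3%, interval 19.1 to 52.2), at 24.7 and 26.6 CPM, and in 28.0% and 27.6% of thinned cells. The gene meis1b was found in 30 cells of DP 1 (56.6%, interval 42.3 to 70.2) and in 17 of DP 2 (48.6%, interval 31.4 to 66.0), at 75.4 and 42.4 CPM, and in 42.0% and 41.4% of thinned cells. For hhex and meis1b, as for tal1 and lmo2, the shares of the libraries at 20217 counts lay within each other's intervals. At 44880 counts hhex was in 34.9% and 47.8% and meis1b in 60.5% and 52.2% of cells.

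**Figure D1:**
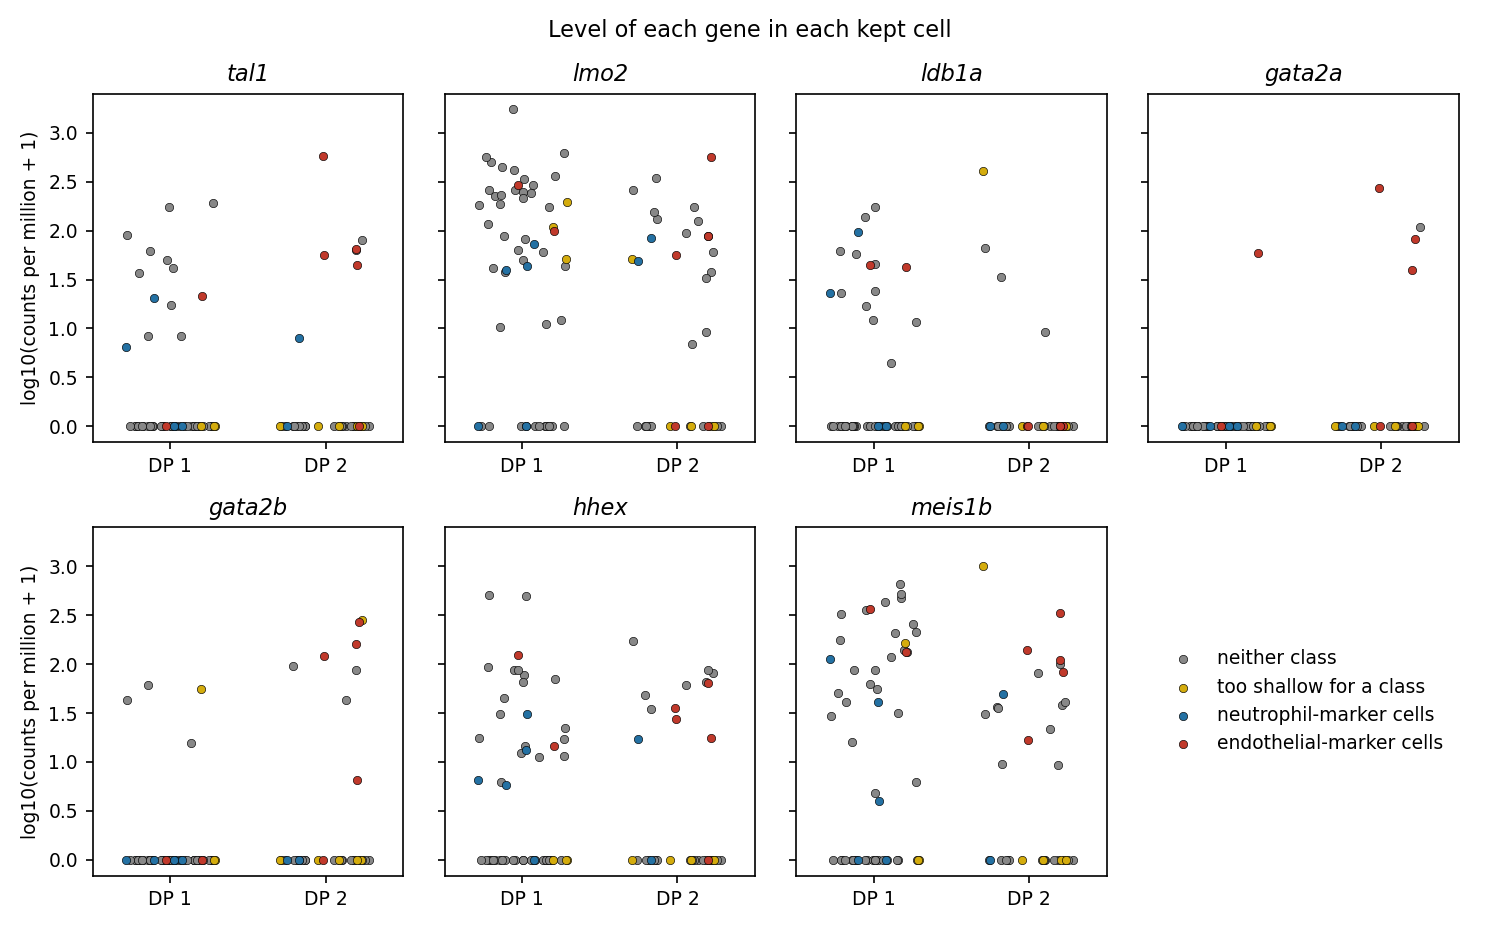
Level of each gene in each of the 88 kept cells, as log10(CPM + 1), by library, with the marker class of each cell as its colour. Points at 0 are cells with no count. All 5 cells with gata2a stand out against a library otherwise at 0, and 4 of them are endothelial-marker cells.

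**Figure D2:**
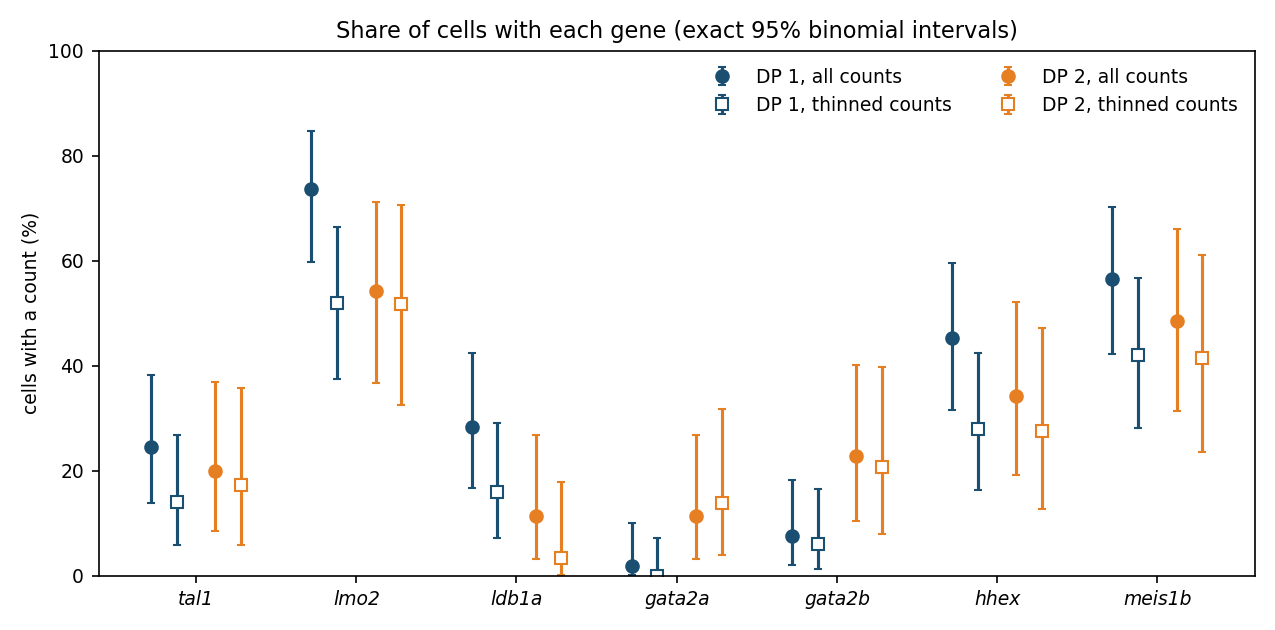
Percent of cells with a count of each gene in DP 1 and DP 2, from all counts (filled circles) and from cells thinned to equal depth (open squares), with exact 95% binomial intervals. Thinning lowers the shares more in the deeper DP 1, where lmo2 goes from 73.6% to 52.0%.

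The cells were then sorted into classes by how many markers of another cell type they held at equal depth, none of which is among the 9 genes. Endothelial-marker cells held at least 6 of 19 endothelial markers and numbered 2 in DP 1 and 5 in DP 2. Neutrophil-marker cells held at least 7 of 12 neutrophil markers and numbered 5 and 2. The other 43 and 22 cells form the neither class, and 0 cells met both definitions. One endothelial-marker cell sat at its minimum, 4 cells lay 1 or 2 markers below it, 10 cells lay 1 or 2 below the neutrophil minimum, and another random thinning moved 2 cells between classes. A single cell gave 64.5% of the endothelial-marker sum in DP 1 and 47.1% in DP 2, and 29.6% and 70.0% of the neutrophil-marker sums. The summed level of the 9 genes listed as epidermal was higher in the endothelial-marker class. It ran from 404 to 4757 CPM in the cells of that class and was 2033 and 2479 CPM in its sums, against 51.1 and 65.9 CPM in the neither class. Most counts of the list were of 2 keratin genes, krt8 (1358 counts in kept cells) and krt18a.1 (2013). The next was krt4 with 117, and krt5 and anxa1c were at 0. The part of the 9 genes in the values below was not tested.

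The clearest class pattern was that of gata2a. In endothelial-marker cells its sums were 37.5 CPM (DP 1) and 41.0 CPM (DP 2). The neither class of DP 1 had 0 counts, with an interval up to 0.503 CPM, and that of DP 2 was at 1.97 CPM. Neutrophil-marker cells had 0 counts in both libraries, with intervals up to 2.66 and 17.8 CPM. Both endothelial-marker sums thus lay above every other sum, that of DP 1 through 1 of its 2 cells. At equal depth gata2a was in 0 of 2 endothelial-marker cells of DP 1 and 3 of 5 of DP 2. In the neither class it was then in 0 of 43 and 1 of 22. By summed counts gata2a was 20.9-fold higher in endothelial-marker than in neither-class cells of DP 2 (33 against 4 counts, counting interval 7.42 to 81.0). In DP 1, with 17 against 0 counts, the counting interval of the ratio began at 66.8. All 17 counts came from 1 cell, DP 1 cell 45, and the interval does not cover the spread between cells. Summed over both libraries gata2a was 93.1-fold higher (50 against 4 counts, interval 34.2 to 355). That sum mixes library with class. DP 2 gave 804473 of the 1257548 total counts of endothelial-marker cells, but 2033583 of the 9370653 of neither-class cells.

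Cell by cell, gata2a was at 58.2 CPM in DP 1 cell 45, at 81.9 in DP 2 cell 5, at 274 in DP 2 cell 7 and at 38.5 in DP 2 cell 32, all of them endothelial-marker cells. The fifth, DP 2 cell 25, was a neither-class cell at 108 CPM from 4 counts. In the fit across all genes the log2 fold change of gata2a was 5.87 ± 1.71 (SE, n = 2 libraries) and it did not pass the threshold (edgeR quasi-likelihood test, unadjusted p = 0.00325, Benjamini-Hochberg adjusted p = 0.122). The gene passed the filter on low counts through the endothelial-marker sums, in which it is high, so nothing is read from this p-value.

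For the paralogue gata2b the libraries differed: it was higher in endothelial-marker cells in DP 2 and not in DP 1. In DP 2 summed gata2b was 111 CPM in endothelial-marker cells (89 counts) and 8.36 CPM in the neither class, 13.2-fold higher (counting interval 7.82 to 23.7). In DP 1 it had 0 counts in the 2 endothelial-marker cells, with an interval up to 8.14 CPM, and was at 6.41 CPM in the neither class (47 counts). The counting interval of that ratio reaches 1.32, below the whole interval of DP 2, and covers counting error only, from 2 cells. Neutrophil-marker cells had 0 counts of gata2b in both libraries. Of the 12 cells with gata2b, 4 were endothelial-marker cells, all of DP 2, at 270, 158, 119 and 5.50 CPM. Another, DP 1 cell 44, held 5 endothelial markers, 1 below the minimum, and 8 counts of gata2b. With lower class minimums, which take in such cells, gata2b could be tested and was at 2.70 ± 1.03 (edgeR quasi-likelihood test, Benjamini-Hochberg adjusted p = 0.30). At the minimums used it did not pass the filter on low counts, and was at 2.0 ± 1.22 with no filter and 0.91 ± 1.95 with DESeq2.

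The gene meis1b also had its highest sums in endothelial-marker cells. Its sums there were 216 CPM in DP 1 and 80.8 CPM in DP 2. They were 76.5 and 19.7 CPM in the neither class and 24.5 and 33.9 CPM in neutrophil-marker cells. As values both endothelial-marker sums lay above all others, while the sums of the other classes overlapped. The interval of the DP 2 endothelial-marker sum (62.4 to 103) overlapped that of the DP 1 neither-class sum (70.3 to 83.1). By summed counts the ratio to the neither class was 2.83 in DP 1 (counting interval 2.26 to 3.51) and 4.11 in DP 2 (interval 2.73 to 6.25). The fitted log2 fold change was 1.45 ± 0.64, short of the threshold (edgeR quasi-likelihood test, unadjusted p = 0.0368, Benjamini-Hochberg adjusted p = 0.367).

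For tal1 the summed levels of the libraries went opposite ways. In DP 1 its endothelial-marker sum was 13.2 CPM and its neither-class sum 30.8 CPM, a ratio of 0.430 (counting interval 0.156 to 0.95). In DP 2 it was at 83.3 against 4.43 CPM, 18.8-fold higher (interval 9.34 to 42.9). In DP 1, cell 23 gave 107 of the 226 neither-class counts (47.3%) and cell 37 another 81, so the order there rests largely on 2 cells. All 6 counts of the endothelial-marker sum in DP 1 came from 1 cell. In DP 2, cell 7 gave 50.7% of the endothelial-marker counts. The endothelial-marker cells with tal1 were 1 of 2 in DP 1 and 4 of 5 in DP 2. The neither-class cells with it were 10 of 43 and 2 of 22. At equal depth tal1 was in 0 of 2 and 4 of 5 endothelial-marker cells, against 14.0% and 4.55% of neither-class cells. The fit over both libraries gave a log2 fold change of 1.34 ± 1.0 for tal1, short of the threshold (edgeR quasi-likelihood test, Benjamini-Hochberg adjusted p = 0.581), and the value was -1.52 without DP 2 and 4.11 without DP 1.

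For lmo2 the endothelial-marker and neither classes overlapped, at 168 and 132 CPM against 171 and 70.8 CPM. The lowest lmo2 sum was in the neutrophil-marker cells of DP 1, at 28.8 CPM (interval 20.6 to 39.2), and those of DP 2 were at 72.6 CPM, next to the 70.8 CPM of the neither class there. Of the 2 class differences of lmo2, the endothelial one was 0.16 ± 0.60 and the neutrophil one -1.63 ± 0.78 on the log2 scale, and neither passed (edgeR quasi-likelihood test, Benjamini-Hochberg adjusted p = 0.936 and 0.382). With DP 1 left out the neutrophil value was -0.19.

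Summed hhex was lowest in neutrophil-marker cells of both libraries, at 12.2 and 4.84 CPM, against 25.5 and 31.5 CPM in the neither class, while the endothelial-marker sums were 53.0 and 22.4 CPM. As values its neutrophil-marker sums lay below the others, but their intervals (7.13 to 19.6 in DP 1, 0.123 to 27.0 in DP 2) overlapped that of the DP 2 endothelial-marker sum (13.3 to 35.4). The DP 2 neutrophil-marker interval also overlapped those of the neither class, and that sum rests on 1 count. Shares did not follow the sums: hhex was in 5 of 7 neutrophil-marker and 25 of 65 neither-class cells, and in 28.6% and 26.2% at equal depth. The log2 difference from the neither class was -1.11 ± 1.11, also short of the threshold (edgeR quasi-likelihood test, Benjamini-Hochberg adjusted p = 0.700). For ldb1a the sums were 41.9, 31.0 and 17.0 CPM in endothelial-marker, neutrophil-marker and neither-class cells of DP 1, and 0, 0 and 7.87 CPM in DP 2, so its order differed between the libraries.

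**Figure D3:**
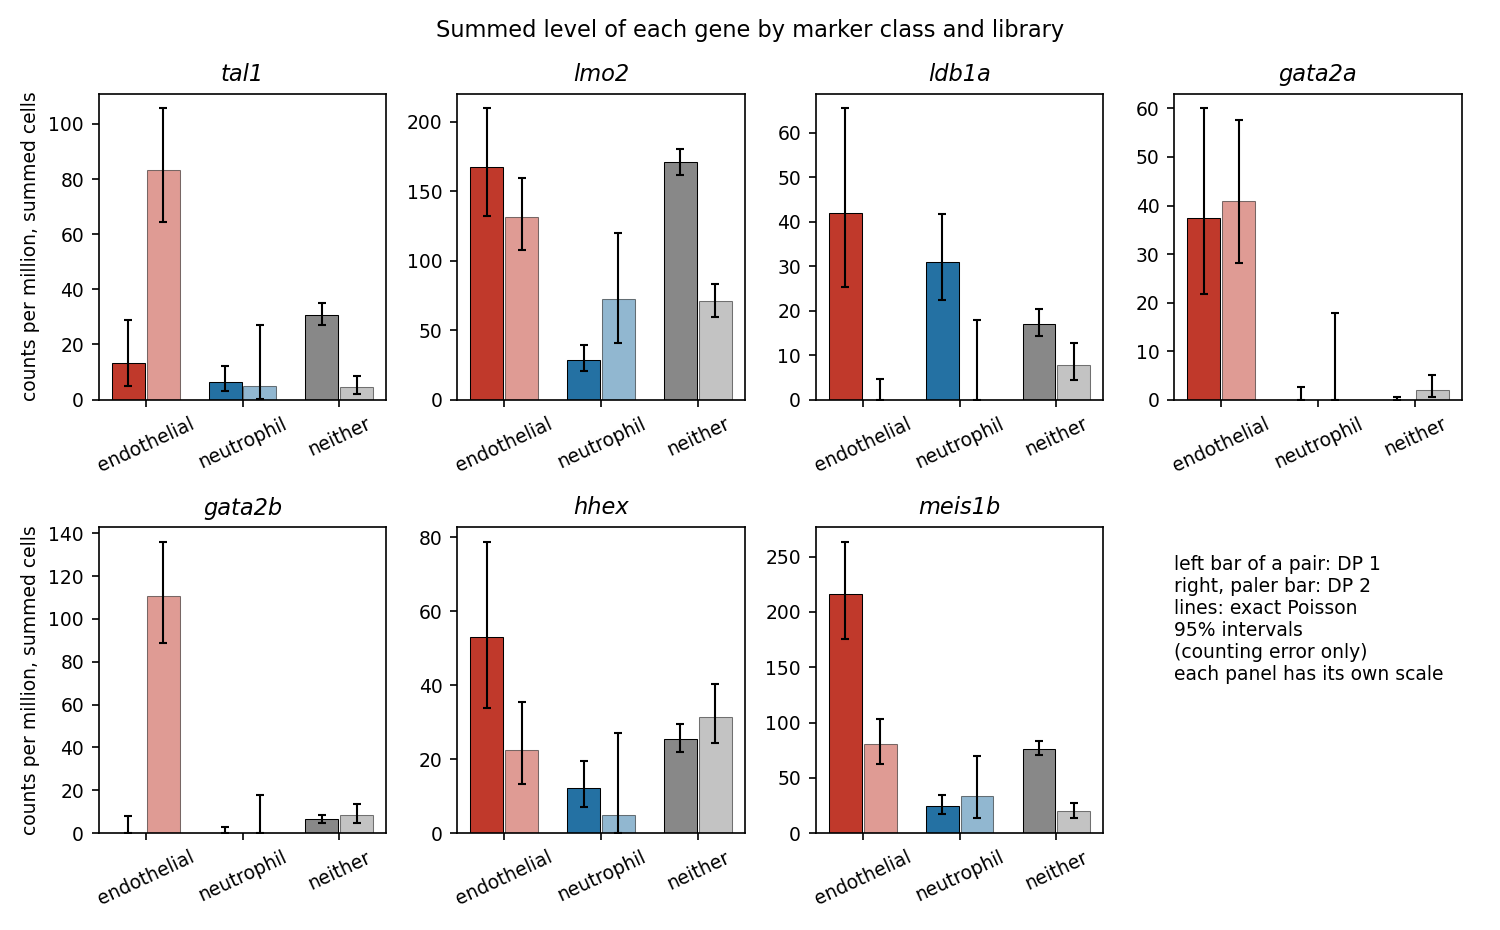
Summed level of each gene in CPM by marker class, with DP 1 as the left and DP 2 as the right, paler bar of each pair and exact Poisson 95% intervals. Each panel has its own scale. The endothelial-marker bars of gata2a stand at 37.5 and 41.0 CPM and the others at most at 1.97 CPM, while the tal1 bars of DP 1 and DP 2 order the classes differently.

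Over the whole fit of 6630 genes, 1.16% were called higher and 0.166% lower in endothelial-marker cells, and 1.75% higher and 0.362% lower in neutrophil-marker cells (edgeR quasi-likelihood test, Benjamini-Hochberg adjusted p under 0.05). Of the 9 genes, 6 passed the filter on low counts and 0 were called in either comparison. At an unadjusted p under 0.05, 2 of the 6 (gata2a and meis1b) passed in the endothelial comparison and 0 in the neutrophil one, against 12.3% and 13.2% of all tested genes. For gata2a the filter was passed through the endothelial-marker sums in which it is high, so nothing is read from this count. All 6 had a value above 0 in endothelial-marker cells, with a median of 0.85 against -0.23 for all tested genes, and this median of all genes was 0.03 with DESeq2 size factors. These signs were not stable: ldb1a was at -1.88 with DESeq2, lmo2 at -0.32 and hhex at -0.93 with higher class minimums, and tal1 at -1.52 without DP 2. In neutrophil-marker cells 4 of 5 lay below 0, the exception being ldb1a at 0.88 ± 1.07, and no fold is given for gata2a, which had 0 counts there and 4 in the neither class. These medians describe genes that passed the filter and are not a test.

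**Figure D4:**
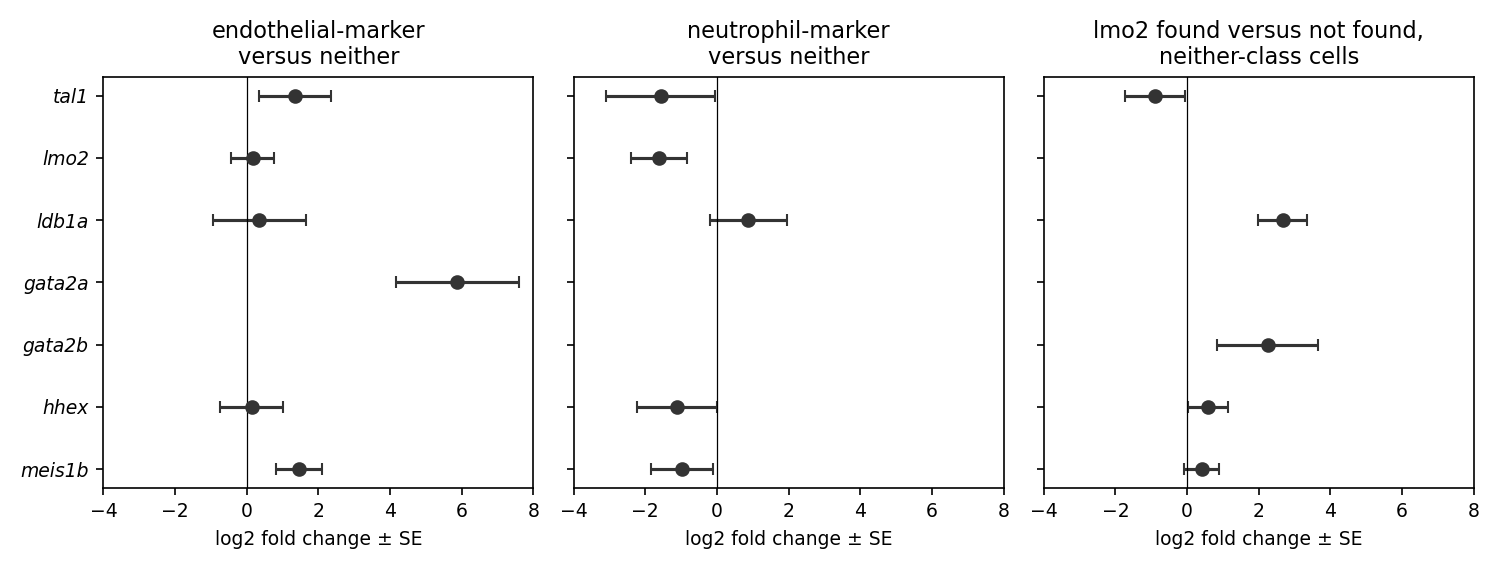
Fitted log2 fold change with its SE for each gene that was tested, in endothelial-marker cells, in neutrophil-marker cells and in neither-class cells with lmo2 against those without it. None of the points passed the adjusted threshold, and gata2a in endothelial-marker cells lies farthest from 0, at 5.87.

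The partner genes of the complex were listed by role, and among these lists spi1b and spi2 were the called genes. Of 17 LDB1 cofactors and LMO relatives with a row, 10 were tested and 0 were called in either comparison. The closest was ldb2a, the gene of a second LDB adaptor, whose endothelial-marker sums were 161 CPM in DP 1 and 143 CPM in DP 2, with 17.2 and 18.7 CPM in the neither class. It was found in all 7 endothelial-marker cells. Its log2 fold change of 2.88 ± 0.70 lay just outside the threshold (edgeR quasi-likelihood test, Benjamini-Hochberg adjusted p = 0.0503). The corepressor gene cbfa2t3, whose product ETO2 joins the complex in mammals, was at 2.16 CPM in neutrophil-marker cells of DP 1 and had 0 counts in those of DP 2, against 74.0 and 26.1 CPM in the neither class. Its value there was -4.86 ± 1.52 (edgeR quasi-likelihood test, Benjamini-Hochberg adjusted p = 0.123).

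Of the E protein and ID genes 6 were tested and 0 called. The E protein gene tcf12 had endothelial-marker sums of 135 and 11.2 CPM and neither-class sums of 3.13 and 1.48 CPM. Its log2 fold change was 4.87 ± 1.18 (edgeR quasi-likelihood test, Benjamini-Hochberg adjusted p = 0.0551). It passed the filter on low counts through the endothelial-marker sums, in which it is high, so nothing is read from this p-value. Of 11 MEIS, PBX and PREP genes with a row, 4 were tested and 0 called, and no gene of the other GATA and FOG list passed the filter. Among 14 other blood and hemogenic regulators 8 were tested. There spi1b, the gene of the myeloid factor PU.1, fell in endothelial-marker cells by 5.50 on the log2 scale (SE 1.05) and rose in neutrophil-marker cells by 3.41 ± 0.48 (edgeR quasi-likelihood test, Benjamini-Hochberg adjusted p = 0.00994 and 0.000604). The sort gene spi2 fell in neutrophil-marker cells by 6.02 (SE 1.07, Benjamini-Hochberg adjusted p = 0.00464 by the same edgeR test). Among listed markers of other cell types, the keratin genes krt8 and krt18a.1 rose in endothelial-marker cells (4.78 ± 0.54 and 5.55 ± 0.58) and the phosphatase gene ptpn6 rose in neutrophil-marker cells (2.74 ± 0.57).

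The largest called changes elsewhere are given as a description of the class differences. Endothelial-marker cells rose most in the caveolar coat gene cavin1b (111 against 0 counts over both libraries' sums, 101 of them in DP 1), si:ch73-364h19.1, apol1, the aquaporin gene aqp8a.1 (269 and 64 counts against 1 and 2) and si:ch211-145b13.6. They fell most in spi1b, antxr2a, papss2b, gpr183a and fabp3. Neutrophil-marker cells rose most in zgc:158868, the lipoxygenase gene alox12, si:ch211-276a23.5, the fatty acid binding protein gene fabp7a and rdh12l, and fell most in btg3, si:dkey-261h17.1, spi2, phlda2 and pmp22b. All 45 counts of apol1 in endothelial-marker cells came from DP 1. Besides cavin1b, 0 counts in the neither class were held by si:ch73-364h19.1, apol1 and si:ch211-145b13.6. The rises in neutrophil-marker cells had at most 7 counts in a neither-class sum. These rises, and btg3 with 0 counts in neutrophil-marker cells, passed the filter on low counts through sums other than the low ones. Nothing is read from their being called.

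The cells with each gene were next compared pair by pair, as a description with no test. Deeper cells hold more genes of any kind, so the shares at equal depth are given beside those from all counts. The 2 central genes tal1 and lmo2 were found together in 16 of 88 cells. From all counts lmo2 was found in 80.0% of the cells with tal1 and in 61.8% of those without it. At equal depth these shares were 50.0% (interval 21.1 to 78.9) and 52.2% (interval 39.7 to 64.6), so no excess was seen there. With 12 thinned cells holding tal1, these intervals are too wide to tell whether the full-depth gap remained.

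Several other pairs differed the same way at both depths, and those given here were chosen after their values were seen. Of 12 cells with gata2b, 11 also held meis1b (91.7%, interval 61.5 to 99.8), against 47.4% of the cells without gata2b (interval 35.8 to 59.2). In thinned cells this was 7 of 9 (77.8%, interval 40.0 to 97.2) against 37.1% (interval 25.9 to 49.5), so the intervals overlap there. From all counts it was 4 of 4 gata2b cells in DP 1 and 7 of 8 in DP 2. Among all kept cells meis1b was in 56.6% and 48.6%. The gata2b cells of each library are too few to resolve an excess within it. The genes gata2b and ldb1a were found together in 0 of 88 cells, with gata2b in 12 and ldb1a in 19. They lay mostly in different libraries, since 8 of the 12 gata2b cells were of DP 2 and 15 of the 19 ldb1a cells of DP 1. Within DP 1 it was 0 of 4 gata2b cells against 30.6% of the others, and within DP 2 0 of 8 against 14.8%, with intervals for 0 that reach 60.2% and 36.9%. In thinned cells it was again 0, with 9 cells each, and a share of up to 26.5% of the gata2b cells lies within the interval of 0 of 12. Cells without gata2b held ldb1a in 25% (interval 15.8 to 36.3), so the intervals overlap. Over both libraries the cells with gata2b had a lower median total than those without, at 82331 and 112209. The libraries differed in this. In DP 1 the medians were 101201 with and 135127 without gata2b, while in DP 2 the cells with it were deeper, at 82331 against 55569.

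The same 12 gata2b cells held spi1b in 2 (16.7%, interval 2.09 to 48.4), against 60.5% of the other cells (interval 48.6 to 71.6). In thinned cells this was 11.1% against 40.0%. Split by library, the gap was smaller in DP 1, at 50.0% (interval 6.76 to 93.2) against 73.5% (interval 58.9 to 85.1). In DP 2 it was 0% (interval up to 36.9) against 37.0% (interval 19.4 to 57.6), so the intervals overlap within each library. The gene spi1b was less widely found in DP 2, to which 8 of the 12 cells belong. Of the 12, 4 were endothelial-marker cells, the class in which spi1b fell. By contrast 17 of the 19 ldb1a cells held spi1b (89.5% against 44.9%), but 33.3% against 37.1% at equal depth, so the excess was not seen there. Both GATA2 paralogues were found together in 2 cells, DP 2 cells 5 and 32, both endothelial-marker cells. For tal1 with hhex the shares were 70.0% of cells with tal1 against 32.4% of those without, and 41.7% against 25.4% in thinned cells. For gata2a the share of cells with tal1 was 3 of 5, against 20.5% of cells without gata2a. The gene gata2b was found in 30% of cells with tal1 and 8.82% of those without it, and in 25% and 8.96% of thinned cells. For ldb1a the shares were 25.9% of cells with lmo2 and 13.3% of those without it, and 17.1% and 5.26% in thinned cells.

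**Figure D5:**
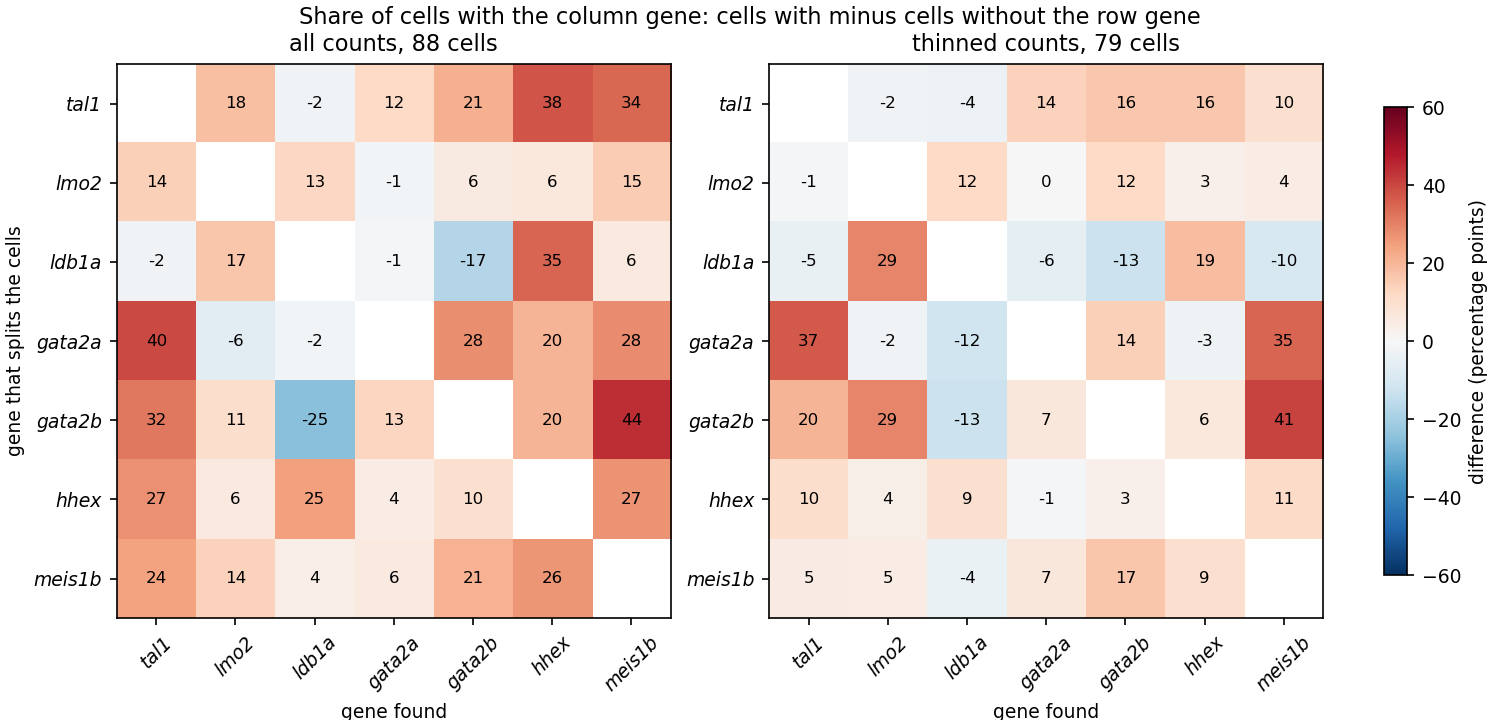
Difference, in percentage points, between the share of cells with the column gene among cells with and among cells without the row gene, from all counts (left, 88 cells) and from thinned counts (right, 79 cells). Most squares of the left panel are above 0, and on the right meis1b in gata2b cells stays high while lmo2 in tal1 cells falls from 80.0% against 61.8% to 50.0% against 52.2%.

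Transcripts for a whole complex were seldom found in 1 cell. These shares do not bound the share of cells that express the set. Even tal1 alone was found in 15.2% of thinned cells, and the listed genes tcf4, of an E protein, and tal2 have no row. An LDB gene (ldb1a, ldb1b, ldb2a or ldb2b) was found in 51 of 88 cells and an E protein gene (tcf3a, tcf3b or tcf12) in 52. With tal1 and lmo2, an LDB gene was found in 10 cells (11.4%, interval 5.59 to 19.9), an E protein gene in 12, and a GATA gene (gata1a, gata1b, gata2a, gata2b or gata3) in 9. All of these roles together were filled in 6 cells (6.82%, interval 2.54 to 14.3), and in 0 of 79 thinned cells (interval up to 4.56%). Per cell a median of 2 of the 7 genes with counts was found, from 0 in 11 cells to 6 in 1 cell. At equal depth the median was 4 in endothelial-marker cells (2 to 4), 1 in neutrophil-marker cells (0 to 2) and 1 in neither-class cells (0 to 5), and the ranges of the endothelial-marker and neutrophil-marker cells met at 2. The classes were set by markers found at this same depth, and genes of any kind per cell were not compared between them. These medians are thus not read as particular to the 7 genes.

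To ask which genes go with the complex outside the marker classes, neither-class cells with both tal1 and lmo2 were to be tested against cells with neither gene. At equal depth only 3 DP 1 cells and 1 DP 2 cell held both, fewer than the 4 per library required, so that test was not run. In its place, chosen after the data were seen, the neither-class cells with lmo2 (24 in DP 1 and 11 in DP 2) were compared with those without it (19 and 11). Of 7092 genes tested 0.0% were called higher and 0.0% lower (edgeR quasi-likelihood test, Benjamini-Hochberg adjusted p under 0.05), while 628 (8.86%) had an unadjusted p under 0.05 and DESeq2 called 2. The cells with lmo2 were deeper, with medians of 145314 against 96986 counts in DP 1 and 62301 against 57663 in DP 2.

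Of the other 8 genes 5 were tested there and 0 called. The largest value was that of ldb1a, whose product binds LMO2. It was at 24.2 CPM in cells with lmo2 against 3.19 CPM in cells without it in DP 1, and at 13.3 against 3.53 CPM in DP 2. In DP 2 these were 12 counts in 2 cells against 4 counts in 1 cell. The log2 difference of ldb1a was 2.66 ± 0.69 (edgeR quasi-likelihood test, unadjusted p = 0.0120, Benjamini-Hochberg adjusted p = 0.554). It passed the filter on low counts through the sums with lmo2, in which it is high, so nothing is read from this p-value. The values of gata2b (2.25 ± 1.41), hhex (0.58 ± 0.57), meis1b (0.41 ± 0.49) and tal1 (-0.90 ± 0.84) lay within 2 SE of 0. Among other genes of the lists, gata1b was at 16.3 CPM with lmo2 and had 0 counts without it in DP 1. In DP 2 it was at 15.5 against 0.883 CPM (14 against 1 count). Its log2 difference of 5.65 ± 1.48 did not pass (edgeR quasi-likelihood test, Benjamini-Hochberg adjusted p = 0.554). This gene too passed the filter on low counts through the sums with lmo2, so nothing is read from its p-value.

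The genes whose levels over cells were most like those of each member were taken from 4880 genes found in at least 20 cells, by the mean of the within-library Spearman correlations of log2(CPM + 1) over the 53 and 35 cells. Cells of a library share its preparation and vary in depth, so these are descriptions. For tal1 they were ints11 (0.52), igf2bp2b (0.52) and dcun1d2b (0.47). For lmo2 they were rnaseh2a (0.48), rpl32 (0.47) and nle1 (0.47), for hhex arih2 (0.47), zbtb8os (0.44) and fthl27 (0.44), and for meis1b bckdhb (0.47), ets2 (0.42) and acsl1a (0.41). No other member was among the 3 most alike for any of the 4. The level of each gene also varied with the total count of the cell, by a correlation of 0.24 and 0.29 for tal1, 0.12 and 0.44 for lmo2, 0.34 and 0.41 for hhex, and 0.02 and 0.34 for meis1b in DP 1 and DP 2. The genes gata2a, gata2b and ldb1a were found in too few cells for this.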

How the data were processed

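Values are the deposited raw counts of each gene in each well, as whole numbers. The submitters' processing notes name the build GRCz11, HISAT2 2.1.0 and Trimmomatic 0.36, for several assays together. How reads were counted, by strand or by molecule, is not given in the sources used here. Among nonzero counts the median was 8 and 19.5% were 1. The deposited cell table lists the sort gates. For DP 2 it lists 93 cells, of which 37 have counts. For DP 1 it lists 55, while the count table holds 56 wells. Of the 93 wells of both libraries in the count table, 5 with under 500 genes were removed, and 0 cells had identical counts. No doublet caller was run on singly sorted cells.

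Counts were summed per library and class into 6 sums and tested two-sided with edgeR 4.0.16 (R 4.3.3): TMM, filterByExpr, quasi-likelihood fit, library as a block, class markers left out, Benjamini-Hochberg adjustment over all tested genes. Residual degrees of freedom were 2 (1 for the lmo2 comparison, from 4 sums). SEs were obtained by dividing the size of a log2 fold change by the square root of its F statistic. The variance behind a p-value joins a gene's own spread with a value shared over all genes, which has 15.3 prior degrees of freedom (2.81 for lmo2). It thus rests mostly on the shared value. A gene's own spread is how far its class difference varies between these 2 libraries, which may be technical. On simulated data the fit recovered 56.5% of 4-fold and 90.5% of 16-fold changes in the endothelial comparison. It recovered 37.5% and 88.5% in the neutrophil one, and 83.0% and 96.0% in the lmo2 one. The false calls were 3 of 116 and 5 of 186 in the endothelial comparison. They were 1 of 76 and 4 of 181 in the neutrophil comparison and 12 of 178 and 17 of 209 in the lmo2 one. The simulated counts had 1 shared spread for every gene, a negative binomial dispersion of 0.0908 (0.0371 for lmo2). They had no effect of library or of single cells, while 1 cell can give most of a real sum. Whether this recovery holds for these data or for the 9 genes was not tested. Kept cells are numbered within each library. Genes were named as the 9 members, the listed genes past the threshold or that a result turns on, the 5 largest called rises and falls per comparison, and the 3 genes most alike per member, with a correlation of at least 0.3 in each library. The members, lists and class rule were chosen with earlier results of these data known. Robust and legacy fits, the lmo2 comparison and a second thinning were added after the data were seen.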

Additional observations from a re-analysis of the deposited data

How the results depend on the processing

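Across the alternatives run with a test, 0 of the 9 genes were called in any of the 3 comparisons. The main counts were 88 genes called in the endothelial and 140 in the neutrophil comparison. The endothelial count was 47 with the legacy fit (17 higher and 30 lower, against 77 and 11, with 25 genes shared), 30 with lower class minimums (26 shared), 135 with robust fitting and 25 with each class's deepest cell per library left out. The neutrophil count was 92 with the legacy fit, 33 with lower minimums, 71 without the deepest cells and 89 with no replicate block, and the endothelial one was 62 with no replicate block. DESeq2 called 61 higher and 29 lower genes in the endothelial and 107 and 58 in the neutrophil comparison. In the lmo2 comparison DESeq2 called 2 genes and the legacy fit 7, against 0. The tal1 and lmo2 comparison and its alternatives were not run for lack of cells.

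Signs of uncalled log2 fold changes turned for several genes, and the cause was not tested. In endothelial-marker cells ldb1a was at -1.88 with DESeq2, -0.22 with higher minimums, -2.00 with the legacy fit and -0.036 without the deepest cells. There lmo2 was at -0.32 with higher minimums and -0.021 with no filter, and hhex at -0.93, -0.063 with no filter and -0.012 with the legacy fit. In neutrophil-marker cells ldb1a was at -1.56 with DESeq2, -1.59 with the legacy fit and -2.14 without the deepest cells, and lower minimums gave 0.074 for lmo2, 0.13 for hhex and 0.53 for meis1b. In the lmo2 comparison tal1 was at 1.41 with DESeq2, 1.02 with the legacy fit and 0.13 without the deepest cells. Leaving out 1 library, as values with no test, gave -1.52 to 4.11 for tal1, -0.33 to 0.81 for lmo2, -0.57 to 0.75 for hhex and 1.2 to 1.95 for meis1b in endothelial-marker cells, -1.34 to 0.56 for meis1b in neutrophil-marker cells, and -0.026 to 0.49 for meis1b in the lmo2 comparison. Where 1 of the sums left was 0, as for ldb1a without DP 1 and gata2a without DP 2, no value is given. Levels moved beyond their counting interval in 11 of 14 cases without the cell with the most counts, and co-detection in 10 of 21 pairs after thinning. Thinning to 20217 counts moved the shares of lmo2, gata2a, ldb1a, hhex and meis1b beyond their counting interval in DP 1 and of none of the 7 genes in DP 2.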
